A study of Homo sapiens with 12 samples.

Results

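Cassette exons are internal exons that some transcripts of a gene include and others skip. The exons described here were of intermediate inclusion in untreated cells: exon events of 28 to 249 nt whose mean inclusion level was 10 to 90 percent in the WT DMSO samples, with 20 or more reads in each of the 12 samples. The inclusion level is the percentage of informative reads that support inclusion of the exon. The rule chose 5310 exons of the 103335 exon events that met the read minimum. They lay in 3317 named genes, 39 had no gene symbol, and no member overlapped another. The levels of the 3 WT DMSO samples chose the members, so comparisons that use those samples are given as descriptions with no weight on their counts.

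The cells were MEC1, an established B-cell line from chronic lymphocytic leukemia, and poly(A) RNA was sequenced with a strand-specific kit. The 4 groups had 3 samples each: SF3B1 K700E cells with H3B-8800, K700E cells with DMSO, SF3B1 WT cells with H3B-8800, and WT cells with DMSO. H3B-8800 was given at 75 nM for 6 hours and DMSO is its solvent control. All K700E samples carry, beside the base change that gives K700E, a second SF3B1 base change, which replicate 3 of each WT group carries as well; replicates 1 and 2 of WT do not. Each replicate number has one name in the labels under both treatments, read here as one clone or culture that was given both, and the labels do not say how the clones or cultures were derived. Of markers that define B cells, 7 of 7 had a well-read splicing event in all samples, against 0 of 4 myeloid markers and 1 of 5 T and NK cell markers (GNLY).

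An exon is joined to its neighbours only if the spliceosome recognises both of its ends. SF3B1 is the subunit of the U2 snRNP that holds the branch site, the adenosine upstream of an exon that starts the splicing reaction, and the K700E change sits in its HEAT repeats and is recurrent in chronic lymphocytic leukemia. H3B-8800 binds the SF3B complex near the pocket for the branch-site adenosine. When an exon is skipped, its coding sequence is lost, and if its length is not a multiple of 3 the reading frame shifts; some exons instead carry a stop codon, so that their inclusion sends the transcript to nonsense-mediated decay.

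The following sequences are those of exons named in the results below, and whether they bear on the calls was not tested. Coordinates are on GRCh38, the sequences are those of GENCODE transcripts, all 9 exons are wholly coding, and each is written 5′ to 3′ on the strand of its gene. In the first set the capitals mark the last 3 bases of the exon, which pair with U1 snRNA as part of the 5′ splice site. The RBM5, FAS, IKZF1 and TIA1 exons fell in K700E cells under H3B-8800, and for the HNRNPH1 exon the 95% interval of the difference lay within 5 points of 0.
RBM5, chr3:50110379-50110463, plus strand: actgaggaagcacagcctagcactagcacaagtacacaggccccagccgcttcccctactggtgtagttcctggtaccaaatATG
FAS, chr10:89010753-89010815, plus strand: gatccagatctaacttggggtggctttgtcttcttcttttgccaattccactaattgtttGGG
IKZF1, chr7:50387345-50387470, plus strand: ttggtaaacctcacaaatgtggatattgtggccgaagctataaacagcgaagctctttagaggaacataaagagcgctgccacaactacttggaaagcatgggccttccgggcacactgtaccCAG
TIA1, chr2:70229059-70229091, minus strand: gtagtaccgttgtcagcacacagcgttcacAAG
HNRNPH1, chr5:179616869-179616958, minus strand: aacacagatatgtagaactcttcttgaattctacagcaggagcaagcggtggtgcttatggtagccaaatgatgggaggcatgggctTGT

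The second set holds neighbouring exons of equal length that moved in opposite directions, 1 pair in MAPK14 and 1 in UBR2. Here the capitals mark the bases that differ from the other exon of the pair at the same position. The MAPK14 exons differ at 39 of 80 positions and are 51.2% identical, and the UBR2 exons differ at 35 of 99 positions and are 64.6% identical.
MAPK14 exon that fell, chr6:36095987-36096066, plus strand: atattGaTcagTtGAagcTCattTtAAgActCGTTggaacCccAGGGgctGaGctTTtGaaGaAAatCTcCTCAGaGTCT
MAPK14 exon that rose, chr6:36100188-36100267, plus strand: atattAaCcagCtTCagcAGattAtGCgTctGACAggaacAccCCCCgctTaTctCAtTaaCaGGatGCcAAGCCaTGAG
UBR2 exon that fell, chr6:42617409-42617507, plus strand: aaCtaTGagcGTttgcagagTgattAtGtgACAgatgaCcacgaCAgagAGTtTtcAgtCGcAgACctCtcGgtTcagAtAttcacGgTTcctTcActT
UBR2 exon that rose, chr6:42617240-42617338, plus strand: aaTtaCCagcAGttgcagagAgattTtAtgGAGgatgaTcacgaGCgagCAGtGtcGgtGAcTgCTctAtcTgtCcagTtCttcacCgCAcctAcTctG

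The median member had 136 to 151 reads per sample in K700E H3B-8800, 219 to 259 in K700E DMSO, 127 to 134 in WT H3B-8800 and 209 to 235 in WT DMSO. The samples with H3B-8800 were thus the shallower ones for these exons in both genotypes. At a level of 50 percent, 127 reads give a 95% Wilson interval of 41.4 to 58.6 percent, and the minimum of 20 reads gives 29.9 to 70.1 percent. These intervals cover counting error only, since reads without molecular identifiers are not independent molecules.

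Averaged over the 5310 exons, the inclusion level was 35.0, 36.3 and 36.1 percent in the 3 K700E H3B-8800 samples, against 58.9, 58.9 and 56.3 percent in the 3 K700E DMSO samples. In WT cells it was 35.3, 35.1 and 34.5 percent with H3B-8800, against 57.9, 58.2 and 57.9 percent with DMSO, the samples that chose the members. Every sample with H3B-8800 lay below every sample with DMSO, and the genotypes overlapped under either treatment. The spread of a single exon between samples was larger than that of the average: the median SD was 3.44 points in K700E H3B-8800, 3.51 in K700E DMSO, 3.0 in WT H3B-8800 and 2.71 in WT DMSO.

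**Figure D1:**
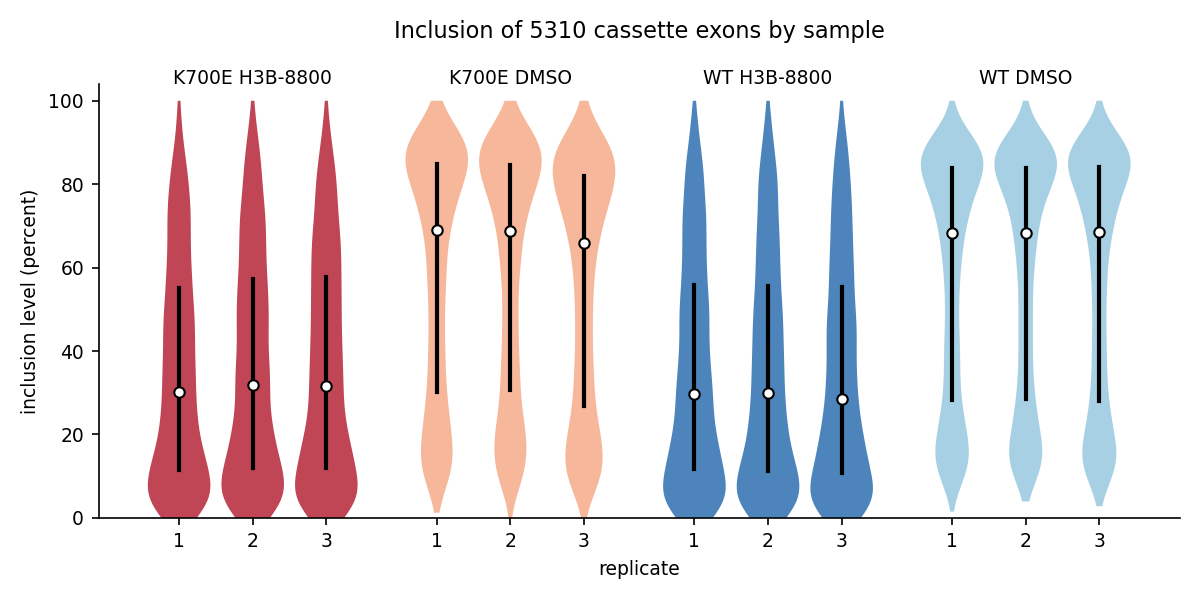
Inclusion level (percent) of the 5310 cassette exons in each of the 12 samples, grouped from left to right as K700E H3B-8800, K700E DMSO, WT H3B-8800 and WT DMSO. The sample medians are 30.2 to 31.9 percent in K700E H3B-8800 and 65.8 to 69.1 percent in K700E DMSO, and 28.5 to 29.8 percent in WT H3B-8800 and 68.4 to 68.6 percent in WT DMSO.

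With H3B-8800, many of these exons left the intermediate range at its lower end. In K700E H3B-8800 cells 1114 exons had a group mean under 10 percent and 80 were over 90 percent, against 180 under and 410 over in K700E DMSO cells. The range still held 4116 exons (77.5%) in K700E H3B-8800 and 4720 (88.9%) in K700E DMSO. In all 3 K700E H3B-8800 samples 897 exons were under 10 percent and 41 were over 90 percent. Between K700E DMSO and WT DMSO, the samples that chose the members, the means of 4882 exons (91.9%) differed by under 10 points. No such share over all tested exons is given, and nothing is read from this count.

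In K700E cells, which did not enter the rule except through the read minimum, H3B-8800 lowered the inclusion of 3378 of the 5310 exons (63.6%) and raised that of 96 (1.81%). An exon was called when limma's moderated test on the log2 odds of inclusion passed at 0.05 after Benjamini-Hochberg adjustment across every tested event and the group means differed by at least 10 points. Of all 46284 tested exons, 38.5% were called lower and 0.443% higher. The median difference was -18.1 points over the cassette exons and -6.47 points over all tested exons, while on the log2 odds scale the order was the opposite, with a median of -1.75 for the cassette exons and -2.95 for all tested exons. All 3 H3B-8800 samples lay below all 3 DMSO samples for 4002 exons and above them for 181. No such count over all tested exons is given, so these numbers are not read as a trait of the cassette exons. The p-values measure the spread between these samples. In bulk RNA a change within every cell and a change in which cells contribute RNA cannot be told apart.

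**Figure D2:**
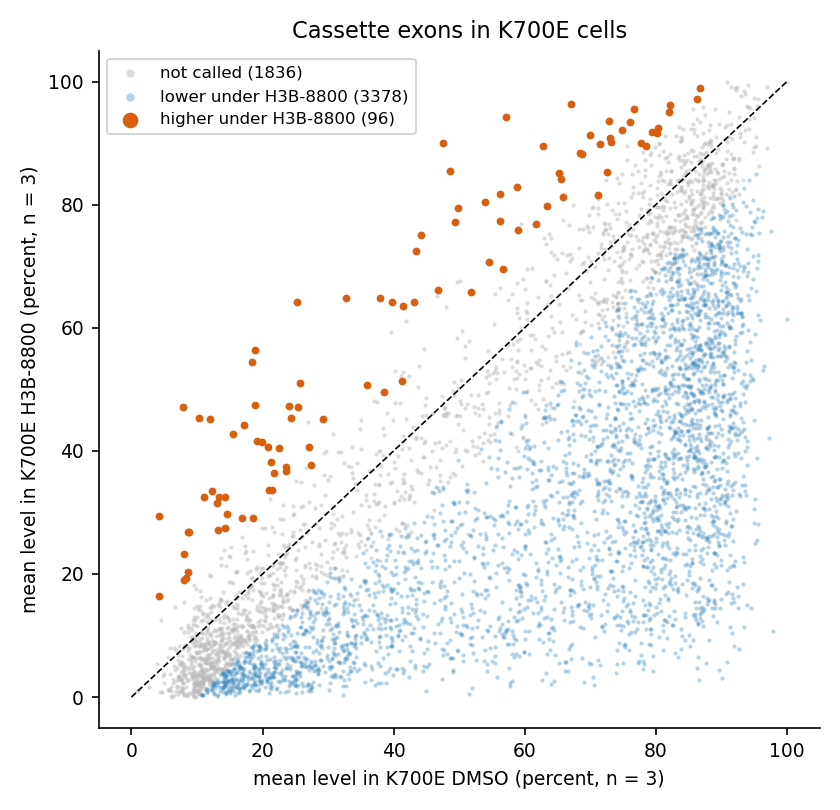
Mean inclusion level (percent) of each cassette exon in K700E cells, with H3B-8800 on the vertical axis and DMSO on the horizontal axis, each point 1 exon and the colours its call. The 3378 exons called lower fill the area under the diagonal, and the 96 called higher are scattered above it.

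The exons with the largest falls were close to fully included with DMSO and close to fully skipped with H3B-8800. The RBM5 exon whose sequence is shown above, in a gene for an RNA-binding splicing regulator, was included at 3.01, 2.37 and 3.1 percent in K700E H3B-8800 and at 87.3, 89.0 and 83.4 percent in K700E DMSO. The groups were far apart, with SDs of 0.398 and 2.86 points, and the difference was -83.7 points (log2 odds -7.78 ± 0.24 SE, limma adjusted p = 1.98e-09). The WT levels were 2.31 ± 0.246 percent with H3B-8800 and 88.3 ± 1.21 percent with DMSO (SD, n = 3 each).

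USP19, a deubiquitinase, has a 150-nt exon (3:49117209-49117358) that was included at 7.53, 8.35 and 7.67 percent in K700E H3B-8800 and at 92.8, 94.5 and 90.9 percent in K700E DMSO. It fell by 84.9 points with no overlap of the groups (limma adjusted p = 5.97e-09). TNRC6A, a GW182 protein of microRNA-guided silencing, has a 33-nt exon (16:24795907-24795939) that was at 12, 12.5 and 9.64 percent in K700E H3B-8800 and at 94.5, 92.7 and 93.2 percent in K700E DMSO. The K700E H3B-8800 samples were again all low and the DMSO samples all high, and the level fell by 82.1 points (limma adjusted p = 6.87e-09).

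The other exons among the 10 largest falls, 1 per gene, behaved in the same way, with differences of -87.2 to -80.1 points. They were in ARHGAP27, SLC12A8 (a solute carrier), PPP1R37 (a regulatory subunit of protein phosphatase 1), TNFRSF19 (a receptor of the TNF receptor family), INPP5F (an inositol phosphatase), TPRA1 and PIDD1 (the scaffold of the PIDDosome). The SLC12A8 exon had the narrowest spread among them under H3B-8800, 3.16 ± 0.11 percent in K700E H3B-8800 against 90.1 ± 4.47 percent in K700E DMSO (SD, n = 3 each). The ARHGAP27 and TNFRSF19 exons had as few as 20 reads in a sample, and the PIDD1 exon 40. The PIDD1 exon had balanced reads in no sample. From raw reads its upstream junction carried 25.3% inclusion in K700E H3B-8800 and 97.2% in K700E DMSO. The downstream junction carried 0.0% and 33.3%, with 1 inclusion read in K700E DMSO, where the deposited level was 94.5 percent. The deposited level rests on reads corrected by the authors' tool, and the sources used here do not say how.

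**Figure D3:**
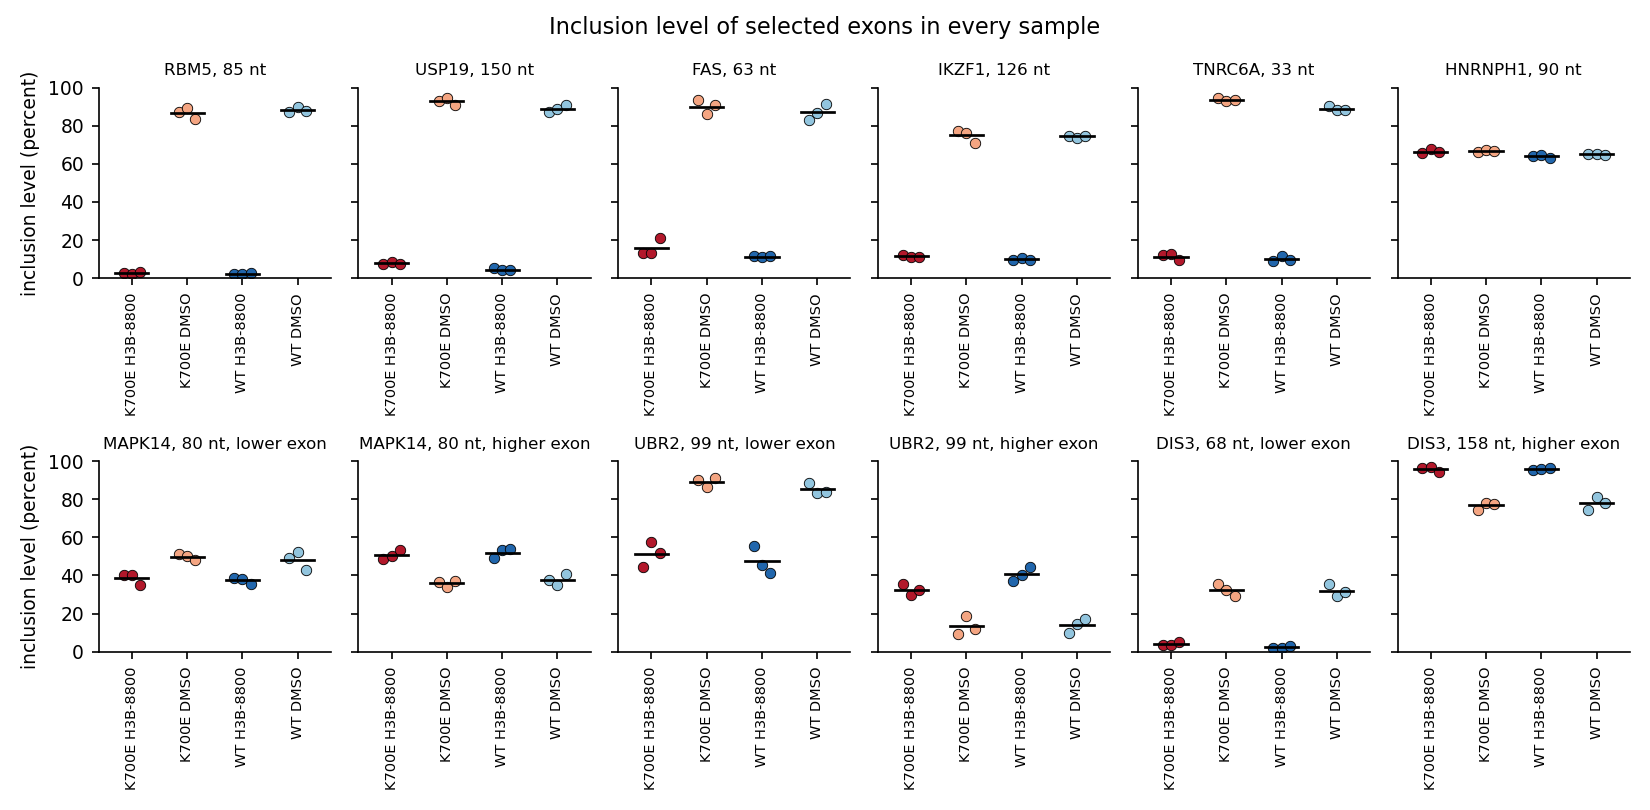
Inclusion level (percent) of selected cassette exons in every sample, with K700E H3B-8800, K700E DMSO, WT H3B-8800 and WT DMSO from left to right and each point 1 sample. RBM5, USP19, FAS, IKZF1 and TNRC6A drop under H3B-8800 in both genotypes, HNRNPH1 stays between 63.0 and 67.6 percent, and the exon pairs of MAPK14, UBR2 and DIS3 move in opposite directions.

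How far an exon fell depended on where it started. By WT DMSO level, which comes from other samples than the difference, the median difference in K700E was -8.06 points for the 1393 exons at 10 to 30 percent and -19.58 points for the 592 at 30 to 50 percent. It was -26.44 points for the 730 exons at 50 to 70 percent and -29.07 points for the 2595 at 70 to 90 percent. The share called lower was 38%, 65.7%, 69.5% and 75.3% in those classes, in that order. Outside the range, exons of the same lengths over 90 percent had a median of -7.34 points and 41.3% called lower among 33173 tested, and those under 10 percent had -1.33 points and 1.5% among 5131 tested. On the log2 odds scale the median became steadily more negative with the starting level, from -1.27 in the class at 10 to 30 percent to -2.2 in the class at 70 to 90 percent and -3.61 above 90 percent. These are descriptions: an exon near either end of the percent scale has less room to move on one side.

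**Figure D4:**
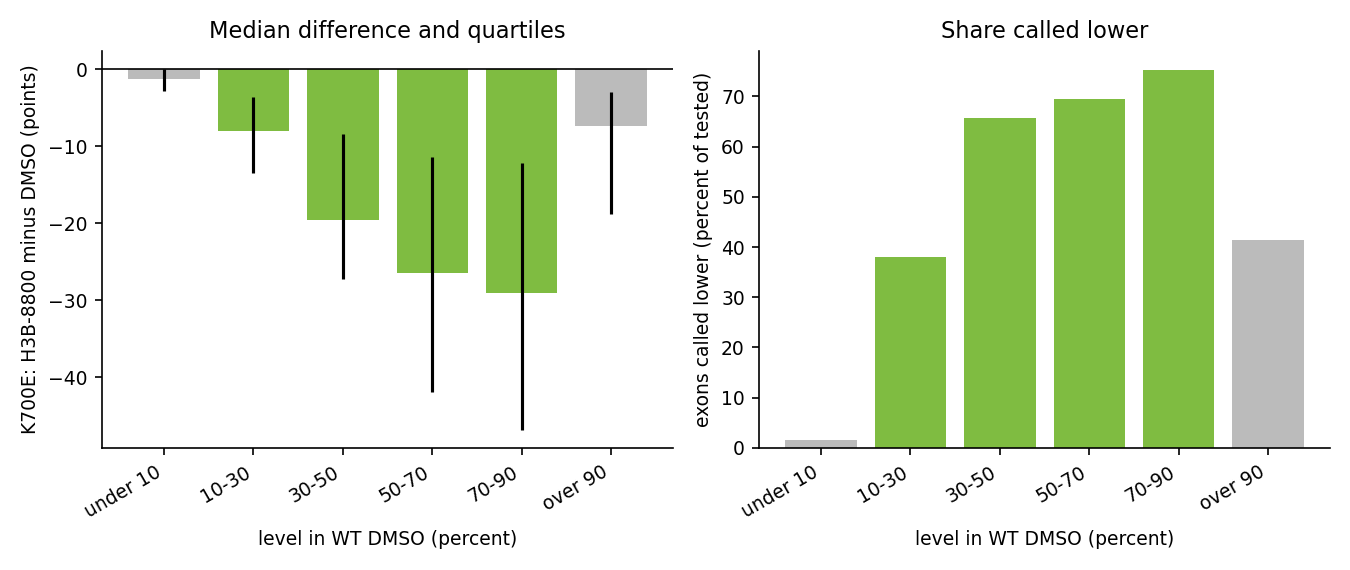
Exons of 28 to 249 nt by class of WT DMSO level (percent, horizontal axis). The left panel shows the median difference between K700E H3B-8800 and K700E DMSO (points) as bars with quartiles as lines, deepest at -29.07 points for 70 to 90 percent, and the right panel the percentage of tested exons called lower, highest at 75.3% in the same class.

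Each exon has an upstream and a downstream junction, and raw reads at both allow a check of the level. Among the 3378 exons that fell, 2990 (88.5%) fell by at least 10 points at both junctions and 13 moved in opposite directions at them. Among the 96 that rose, 25 (26.0%) rose by at least 10 points at both, 32 (33.3%) moved in opposite directions, and 62 had junction reads called balanced by the deposited quality label in none of the 12 samples. The falls were also larger: 2472 of them reached 20 points, against 39 of the rises. A smaller difference misses a cut of 10 points at a junction more easily, so the shares of falls and rises are not like for like. The junction counts were not made over all tested exons. The cause of this difference between falls and rises was not tested.

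**Figure D5:**
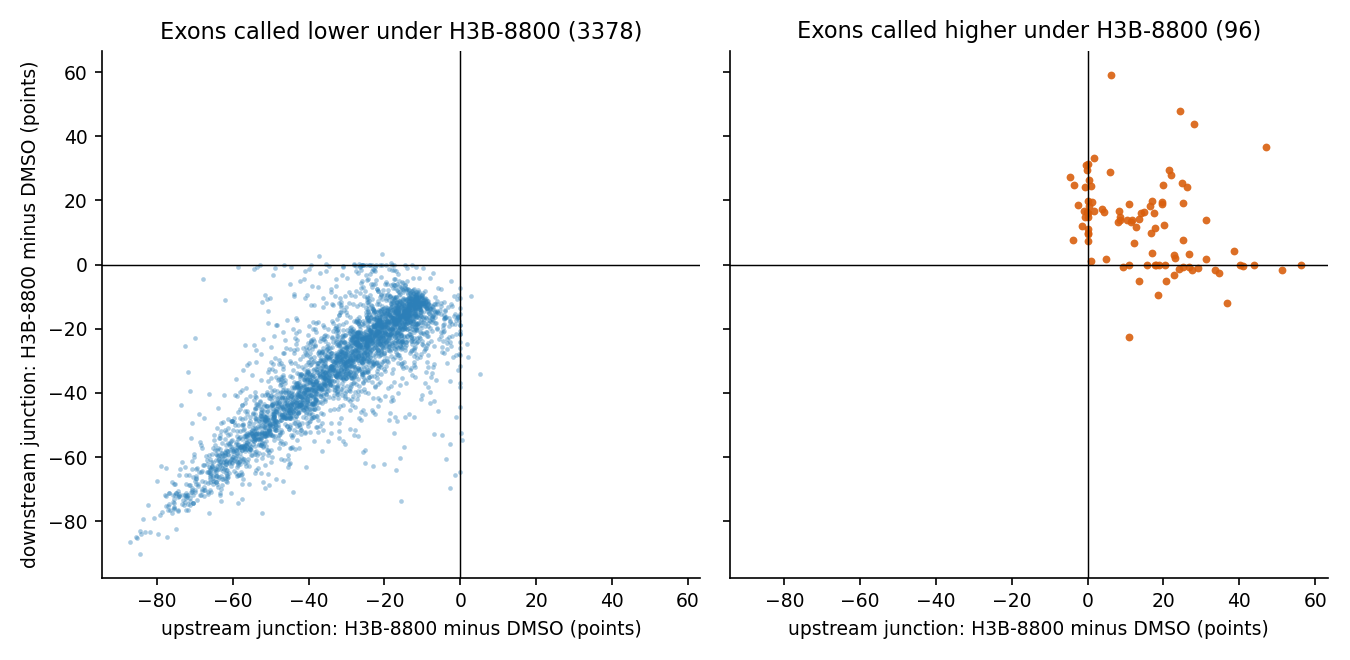
Difference between K700E H3B-8800 and K700E DMSO (points) at the upstream junction (horizontal axis) and the downstream junction (vertical axis) of each called cassette exon, with exons called lower in one panel and those called higher in the other. Most of the 3378 falls lie along the diagonal, 2990 of them at least 10 points lower at both junctions, while 71 of the 96 rises are not 10 points higher at both.

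The 10 largest rises show this difference. The ITGAL exon (16:30473965-30474083, in a gene for the alpha subunit of the integrin LFA-1) was included at 44.4, 48.1 and 48.8 percent in K700E H3B-8800 and at 11, 6.14 and 6.63 percent in K700E DMSO. The groups did not overlap and the difference was 39.2 points (limma adjusted p = 7.26e-06), yet the upstream junction level was 63.9% in K700E H3B-8800 and 12.6% in K700E DMSO, and the downstream one 1.01% and 2.68%. Likewise the VHL exon (3:10142961-10143021) rose by 32.1 points (limma adjusted p = 2.57e-05) with inclusion at the downstream junction alone, 78.6% in K700E H3B-8800 and 49.2% in K700E DMSO. VHL is the substrate receptor of a ubiquitin ligase that acts on hypoxia-inducible factors. In ULK4, TM2D2, PUS10, NFX1 and DHX30 the rises, of 33.1 to 39.0 points, stood at the upstream junction, and the downstream junction was at 6.55% or less in both K700E groups. The HERC2 rise of 42.6 points was present at both junctions, but HERC2 has near-identical copies elsewhere in the genome and its values are uncertain. The ETV7 rise of 37.1 points stood at the upstream junction, and no sample had balanced reads. The ETV7 downstream junction level was also higher in K700E H3B-8800, but from very few reads. It rested on 5 inclusion reads beside 5 skipping reads in K700E H3B-8800, and on 2 beside 54 in K700E DMSO.

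SLC38A9, a lysosomal amino acid transporter that signals arginine to mTORC1, had the largest rise, of those at both junctions, among exons with balanced reads. Its 153-nt exon (5:55702739-55702891) was included at 51.2, 60.7 and 51.3 percent in K700E H3B-8800 and at 18.3, 22.0 and 14.7 percent in K700E DMSO. All 3 K700E H3B-8800 samples were above all 3 K700E DMSO samples, by 36.1 points on average (log2 odds 2.41 ± 0.37 SE, limma adjusted p = 0.000108). In WT cells the exon was at 55.1 ± 5.95 percent with H3B-8800 and 21.6 ± 5.7 percent with DMSO (SD, n = 3 each).

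Only 14 exons, in 12 genes, rose with balanced reads and at least 10 points at both junctions; this group was formed after the values were seen. An ACSL1 exon of 78 nt, in a long-chain acyl-CoA synthetase, was included at 32.5, 30.9 and 25.1 percent in K700E H3B-8800 and at 3.46, 6.03 and 3.15 percent in K700E DMSO. It thus went above the low DMSO values in all samples, a difference of 25.3 points (limma adjusted p = 1.59e-06). Exons of STAMBPL1 (a deubiquitinase) and ZDHHC6 (a palmitoyltransferase) rose by 16.8 and 15.1 points. In PDXDC1, 3 exons rose together by 18.4, 19.5 and 20 points and an FRG1 exon by 13.9 points, but both genes have near-identical copies, so that their values are uncertain. The remaining exons belong to gene pairs described next.

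In 33 genes at least 1 cassette exon was called lower and at least 1 higher. Exon pairs of 9 of these genes are described here, a group likewise formed after the values were seen. The clearest case is MAPK14, the p38 alpha kinase, whose exons of 80 nt are known as a mutually exclusive pair. The upstream exon was included at 40.5, 40.0 and 35.0 percent in K700E H3B-8800 and at 51.5, 50.2 and 47.9 percent in K700E DMSO, and the downstream exon at 48.8, 50.2 and 53.2 percent in K700E H3B-8800 and at 36.7, 34.2 and 37.0 percent in K700E DMSO. Neither exon had overlapping groups: the upstream one fell by 11.4 points (limma adjusted p = 0.0339) and the downstream one rose by 14.7 points (limma adjusted p = 0.00779). With only the 6 samples of the contrast in the fit, the fall missed the threshold at a limma adjusted p of 0.0535, and it also missed it without K700E H3B-8800 replicate 2 or 3 or K700E DMSO replicate 1 or 2, at adjusted p of 0.0527 to 0.102.

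In UBR2, an E3 ligase of the N-degron pathway, the exons shown above lie 70 bases apart. The downstream one was included at 44.7, 57.6 and 52.0 percent in K700E H3B-8800 and at 89.8, 86.4 and 91.3 percent in K700E DMSO, and the level fell by 37.7 points (limma adjusted p = 2.44e-05). The upstream one was at 35.5, 29.8 and 32.4 percent in K700E H3B-8800 and at 9.58, 18.5 and 12.2 percent in K700E DMSO, a rise of 19.1 points (limma adjusted p = 0.00271). Neither overlapped between the K700E groups, but the rise was uneven over the junctions: 19.9% in K700E H3B-8800 against 14.1% in K700E DMSO upstream, and 42.6% against 13.8% downstream.

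DIS3, the catalytic subunit of the RNA exosome, showed the pattern in exons 285 bases apart. The 68-nt exon was at 3.48, 3.76 and 5.34 percent in K700E H3B-8800 and at 35.4, 32.4 and 29.1 percent in K700E DMSO, and fell by 28.1 points (limma adjusted p = 1.29e-06). The 158-nt exon was at 96.2, 96.7 and 94.0 percent in K700E H3B-8800 and at 74.5, 78.0 and 77.7 percent in K700E DMSO, and rose by 18.9 points (limma adjusted p = 3.18e-06). No K700E H3B-8800 sample overlapped a DMSO sample in either. The reads of the 158-nt exon were called balanced in 0 of 12 samples, with 90.7% in K700E H3B-8800 and 59.4% in K700E DMSO at the upstream junction, and 97.0% in K700E H3B-8800 and 83.3% in K700E DMSO at the downstream one.

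CASP8AP2, the FLASH protein of histone mRNA processing, had a 101-nt exon that fell by 32.4 points and a 75-nt exon that rose by 17.2 points. CALU, an endoplasmic reticulum calcium-binding protein, had a 190-nt exon that fell by 18.1 points and a 194-nt exon, 73 bases away, that rose by 12.7 points. PHF20L1 (a chromatin reader), PRKX (a protein kinase), TAB3 (a partner of the kinase TAK1) and HERC2 made up the 9. The PHF20L1 exons were 44983 bases apart and the PRKX exons 20535, in both cases farther than their flanking introns reach, so other exons lie between them. The rises in PRKX and TAB3, of 11.1 and 12.2 points, were the smallest of the group, and that of TAB3 had an adjusted p of 0.0442, which became 0.0683 with the clone or culture as a block. The TAB3 rise also missed the threshold without K700E H3B-8800 replicate 2 or 3 or K700E DMSO replicate 1 or 2 (limma adjusted p of 0.0546 to 0.195), and the PRKX rise without K700E H3B-8800 replicate 1 or K700E DMSO replicate 3 (0.0697 and 0.0604).

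For 71 of the 5310 exons the 95% interval of the difference lay within 5 points of 0. Among the best-read of them, the HNRNPH1 exon was included at 65.6, 67.6 and 66.1 percent in K700E H3B-8800 and at 66.4, 67.0 and 66.6 percent in K700E DMSO. The groups overlapped, and the difference was -0.247 points with a 95% half-width of 1.22 points, from at least 5671 reads in every sample. HNRNPH1 is a splicing regulator that binds runs of G.

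The exon of LRRC75A-AS1, a noncoding RNA gene, was at 16.1 ± 1.73 percent in K700E H3B-8800 and 16.8 ± 1.26 percent in K700E DMSO, and that of KARS, the lysyl-tRNA synthetase, at 19.6 ± 1.25 percent in K700E H3B-8800 and 20.8 ± 1.05 percent in K700E DMSO (SD, n = 3 each). Their 95% half-widths were 2.52 and 1.69 points. A SNU13 exon differed by -0.933 points with a half-width of 3.27 points. The exon of PRDX5, a peroxiredoxin, was lower in all 3 K700E H3B-8800 samples, 88.0, 88.8 and 88.0 percent against 91.5, 91.9 and 91.1 percent in K700E DMSO. That small difference, -3.27 points, had a limma adjusted p of 0.00834 but stayed short of 10 points.

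Members of splicing regulator genes followed the general direction. Of 45 members in genes of hnRNPs and splicing repressors 29 were called lower and 1 higher, with a median of -16.2 points, beside -18.1 points over all members. Of 25 members in genes of SR proteins and other splicing activators 16 were lower and 1 higher (median -15.6 points), of 13 in splicing kinases 9 were lower (median -32.11 points), and of 18 in the spliceosome core 9 were lower and 1 higher (median -9.36 points). These lists, like the ones below, were drawn up with earlier results of these data known, and each count stands beside the 63.6% of all members called lower.

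Within them, TIA1, an RNA-binding protein that promotes the use of weak 5′ splice sites, had its 33-nt exon at 5.06, 9.16 and 11.5 percent in K700E H3B-8800 and at 79.8, 79.9 and 77.0 percent in K700E DMSO. The groups were well apart, and the level fell by 70.3 points (limma adjusted p = 9.05e-08). The CLK2 exon of 88 nt, in a kinase of SR proteins, fell by 71.5 points, though its raw junction levels were lower than its deposited levels, 0.895% in K700E H3B-8800 and 33.7% in K700E DMSO at the upstream junction. RBM23 and RSRP1 exons fell by 55.5 and 61.8 points, and the PRPF18 exon, in the core list, fell by 47.4 points. The rises in CCNL1 (15.2 points), CELF1 (17.1 points) and DHX15 (25.4 points) were each under 10 points at 1 junction or, for CELF1, at both, and that of CELF1 lost its call without K700E H3B-8800 replicate 1 (limma adjusted p = 0.0534).

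Exons annotated only in transcripts typed for nonsense-mediated decay or as noncoding were looked at in the genes of the splicing lists, a group added after the values were seen. Of 14 such exons 11 were called lower, 0 higher and 3 were not called. Beside them, 52.5% of all 198 members of this annotation were called lower and 1.01% higher, and 63.6% of all members were called lower. With so few exons, no difference from these shares is read from the count. PRPF39, a U1 snRNP-associated protein, had a 100-nt exon at 0.76, 0.65 and 0.7 percent in K700E H3B-8800 and at 27.3, 26.7 and 21.1 percent in K700E DMSO. All 3 K700E H3B-8800 samples were under 1 percent, and the level fell by 24.4 points (log2 odds -5.47 ± 0.25 SE, limma adjusted p = 1.27e-08). SRSF11, at 0.643 ± 0.211 percent in K700E H3B-8800 and 16.2 ± 4.57 percent in K700E DMSO, and the second TIA1 exon, at 2.44 ± 0.972 percent in K700E H3B-8800 and 18.8 ± 2.62 percent in K700E DMSO, showed the same order (SD, n = 3 each).

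HNRNPU, a nuclear matrix-associated RNA-binding protein, had the exon of this kind with the largest level in K700E DMSO after PRPF4B, 8.45 ± 1.47 percent in K700E H3B-8800 and 75.1 ± 7.92 percent in K700E DMSO. The uncalled exons were those of HNRNPA2B1, SRSF4 and TRA2A, where K700E H3B-8800 differed from K700E DMSO by -9.85, -8.86 and -6.21 points, with limma adjusted p of 0.0134, 5.24e-05 and 0.0158. The HNRNPDL exon fell by 11.6 points, though its groups overlapped: 3.23, 3.66 and 9.68 percent in K700E H3B-8800 and 15.2, 27.2 and 9.08 percent in K700E DMSO. Without K700E DMSO replicate 2 the difference was -6.63 points. Its limma adjusted p of 0.016 became 0.0577 to 0.0732 without that sample or K700E H3B-8800 replicate 1 or 2, 0.0579 on the percent scale and 0.0527 with read weights. The HNRNPA2B1 exon passed 10 points without K700E H3B-8800 replicate 1 or K700E DMSO replicate 2 or 3. Transcripts that are degraded are under-represented in RNA, so these levels need not equal the share of splicing events.

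Among 27 members in apoptosis regulators 20 were called lower and 0 higher (median -25.72 points). The FAS exon, which encodes the membrane span of this death receptor and whose skipping gives a soluble form, was included at 13.4, 13.3 and 20.9 percent in K700E H3B-8800 and at 93.2, 86.2 and 90.6 percent in K700E DMSO. Every K700E H3B-8800 sample was far below every DMSO sample, and the level fell by 74.1 points (limma adjusted p = 1.22e-07) with like changes at both junctions. A 65-nt exon of CASP8, the initiator caspase of the same pathway, fell to 22.6 ± 5.55 percent in K700E H3B-8800, against 81.3 ± 4.59 percent in K700E DMSO (SD, n = 3 each).

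In the genes of the B cell receptor and B cell surface 24 of 36 members were lower and 1 higher (median -24.7 points), and in those of B lineage transcription factors 21 of 36 were lower and 0 higher (median -13.06 points). The IKZF1 exon, in the gene for the lymphoid zinc finger factor Ikaros, was at 12.3, 10.9 and 11.4 percent in K700E H3B-8800 and at 77.4, 76.4 and 71.1 percent in K700E DMSO. The K700E H3B-8800 samples were within 2 points of each other and far below the others, and the level fell by 63.4 points (limma adjusted p = 1.65e-08). Exons of SLAMF1, a B cell surface receptor, FYN, a Src-family kinase, and LEF1, a WNT pathway transcription factor expressed in chronic lymphocytic leukemia, fell by 65.0, 66.1 and 65.8 points.

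Of 34 members in genes of NF-kappaB and Toll-like receptor signalling 22 were lower and 2 higher (median -16.98 points). The IKBKB exon of 62 nt, in the gene for the IKK beta kinase, was at 8.41, 11.8 and 14.1 percent in K700E H3B-8800 and at 89.0, 94.1 and 90.7 percent in K700E DMSO. It was low in every K700E H3B-8800 sample, and the level fell by 79.8 points (limma adjusted p = 4.75e-08). The exon of TRAF3, a negative regulator of noncanonical NF-kappaB signalling, fell by 76.1 points (limma adjusted p = 9.33e-09). The exon of TANK, a TRAF-binding adaptor, rose by 13.9 points, with the upstream junction at 5.7% in K700E H3B-8800 and 4.58% in K700E DMSO. It lost its call without K700E H3B-8800 replicate 2 or K700E DMSO replicate 3, at limma adjusted p of 0.0639 and 0.0634.

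The larger lists had shares of 63.5% to 74.7% called lower. In the DNA damage response and p53 pathway 77 of 106 members were lower and 0 higher, and exons of BARD1, the partner of BRCA1, and FANCG, of the Fanconi anemia core complex, fell by 70.6 and 75.2 points. The FANCG exon had balanced reads in no sample, and its fall stood at the upstream junction. Its downstream junction was at 0.0% in K700E H3B-8800 and 4.4% in K700E DMSO, where the deposited level was 89.7 percent. In cell cycle and mitosis 57 of 84 were lower and 1 higher, and exons of GINS1 and ORC2, of the replication machinery, fell by 74.0 and 73.5 points. Chromatin regulators had 65 of 87 lower and 0 higher, and exons of the acetyltransferase CREBBP and of YEATS2 fell by 74.0 and 72.5 points. In membrane traffic and cytoskeleton 61 of 84 were lower and 0 higher, and exons of STX2, a syntaxin of membrane fusion, and GIT2 fell by 75.0 and 68.8 points.

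In nonsense-mediated decay and RNA export 15 of 22 members were lower and 0 higher, and exons of NBAS and THOC2 fell by 58.4 and 53.2 points. Of 63 members in other genes with textbook alternative exons 40 were lower and 3 higher. There the 51-nt exon of SNHG1, a host gene of small nucleolar RNAs, was at 3.92 ± 0.78 percent in K700E H3B-8800 and 73.9 ± 5.47 percent in K700E DMSO (SD, n = 3 each), and that of EIF4H fell by 58.3 points. The rises in UBE2V1 (27.2 points), LAMP2 (10.1 points) and, in the cell cycle list, E2F2 (17.4 points) were each under 10 points, or in the opposite direction, at 1 or both junctions. LAMP2 lost its call without K700E H3B-8800 replicate 1 or 3 or K700E DMSO replicate 2 or 3, at limma adjusted p of 0.0658 to 0.186.

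The share of exons that fell varied with their annotation. Of the 5310 exons, 4021 matched an annotated GENCODE exon at both ends and 2652 (49.9%) were wholly coding. Wholly coding exons were called lower in 74.5% of cases (median -25.53 points), exons seen only in transcripts typed for nonsense-mediated decay or as noncoding in 52.5% of 198 (median -10.9 points), those in untranslated parts of coding transcripts in 53.7% of 510, and those with no annotated exon at the place in 34% of 259. Exons that overlap an annotated exon with other ends made up 1030 members, 56.5% of which fell, and 42 of the 96 rises. These classes were not matched for starting level.

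Over all members, 64.8% of the exons with a length divisible by 3 and 62.8% of the others were called lower. Among wholly coding exons the shares, exons divisible by 3 first, were 54.1% of 185 and 41% of 100 for those that start at 10 to 30 percent, and 75.2% of 157 and 60.3% of 78 for those at 30 to 50 percent. They were 80.2% of 197 and 72% of 193 at 50 to 70 percent, and 78.7% of 742 and 79.0% of 1000 at 70 to 90 percent. The exons that keep the reading frame thus had the higher share in 3 of the 4 classes. Their median difference was deeper at 10 to 30 percent (-11.01 against -7.77 points) and at 30 to 50 percent (-21.99 against -16.84). It was shallower at 50 to 70 percent (-28.54 against -30.16) and at 70 to 90 percent (-30.4 against -32.13). These differences were not tested. The median length was 103 nt. Over the length classes the share called lower ran from 57.9% to 67.3%. Among the 4021 exons with a sequence, those ending in AG made up 55.4% of the 2708 that fell, 55.3% of the 47 that rose and 54.3% of the 1266 not called. The median upstream intron was 2299 nt for exons that fell, 1004 nt for those that rose and 1664 nt for the rest.

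The table also gives the retention of the introns next to some members, a readout the rule did not use. Of 3037 tested introns that border 2217 of the cassette exons, 733 (24.1%) were retained more in K700E H3B-8800 than in K700E DMSO, against 31.6% of all tested introns. Retained less were 38 (1.25%), against 0.363% of all tested introns. Introns upstream of exons that fell were higher in 24.8% of cases and introns upstream of exons that were not called in 24.9%.

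Several members often lay in one gene, and they share its transcripts. Of the 3317 genes 2111 had 1 member, 1206 had 2 or more and 444 had 3 or more, up to 12. In 501 of the 1206 every member was called lower in K700E cells, and 33 genes had members called in both directions. Both counts stand beside the 63.6% of all members called lower and the 1.81% called higher. Whether members of one gene moved together was not tested.

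Under H3B-8800 few cassette exons differed between the genotypes. In K700E H3B-8800 cells 6 of the 5310 were called lower and 9 higher than in WT H3B-8800 cells (0.113% and 0.169%), and 0.0583% of all tested exons were called in each direction. At an unadjusted p under 0.05 there were 636, and the median difference was 0.75 points. Limma on the percent scale called 70 lower and 132 higher, and limma with weights from the read numbers 43 and 94. With the replicate number as a block the calls were 2 and 4, and with each sample left out in turn 2 to 4 and 2 to 6, 2 and 2 without K700E H3B-8800 replicate 3. The labels do not link a K700E clone or culture with the WT one of the same number, so that block matches samples by number only.

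The WDR62 exon (19:36071556-36071716), in the gene for a spindle pole protein, was included at 25.6, 24.3 and 22.3 percent in K700E H3B-8800 and at 58.5, 54.6 and 57.9 percent in WT H3B-8800. The genotypes did not overlap, K700E was the lower one, and the difference was -32.9 points (limma adjusted p = 0.000482). With DMSO it was at 79.2 ± 0.561 percent in K700E and 89.5 ± 1.28 percent in WT (SD, n = 3 each). The exon of DCAF16 (4:17805107-17805225), a substrate receptor of a CUL4 ubiquitin ligase, was at 24.9, 24.3 and 27.8 percent in K700E H3B-8800 and at 69.7, 56.9 and 63.6 percent in WT H3B-8800. It was lower in all 3 K700E samples, with a difference of -37.7 points (limma adjusted p = 0.00657), and with DMSO its levels were 54.1 ± 3.6 percent in K700E and 85.8 ± 4.6 percent in WT.

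In the other direction, the NOL9 exon (1:6544826-6544919), in a gene for a kinase of ribosomal RNA processing, was at 31.1, 34.4 and 34.8 percent in K700E H3B-8800 and at 14.3, 12.3 and 11.7 percent in WT H3B-8800. All K700E values were above all WT values, by 20.7 points (limma adjusted p = 0.00795). A PPIA exon was at 49.4, 47.0 and 47.5 percent in K700E H3B-8800 and at 24.5, 20.4 and 17.5 percent in WT H3B-8800, 27.1 points higher in K700E (limma adjusted p = 0.00245). PPIA, cyclophilin A, has many processed copies in the genome, so its value is uncertain. WDR62, NOL9 and PPIA kept their call under every alternative that fits single exons, and DCAF16 under each of them but the minimum of 50 reads, which it did not reach.

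The calls in DNAJC10, SIRT2, UBA7, ABCA6, DOCK8 and PPP4R3B were less firm. The SIRT2 exon, in a deacetylase gene, was at 18.5, 19.4 and 16.3 percent in K700E H3B-8800 and at 31.0, 40.7 and 44.0 percent in WT H3B-8800, with a difference of -20.5 points (limma adjusted p = 0.0341). The ABCA6 exon was 24.3 points higher in K700E than in WT under H3B-8800 (limma adjusted p = 0.0318) and by the same 24.3 points with DMSO. Of the 6 samples of the contrast, leaving out any one ended the calls of DNAJC10, DOCK8 and PPP4R3B, any but WT H3B-8800 replicate 1 that of SIRT2, any but WT H3B-8800 replicate 2 that of ABCA6, and any but K700E H3B-8800 replicate 2 that of UBA7, with limma adjusted p of 0.0637 to 0.145. All but ABCA6 also lost their call with the replicate block, at limma adjusted p of 0.0672 to 0.0868. As that block matches the genotypes by number only, its losses are not read as a weaker call.

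The remaining comparisons use the WT DMSO samples that chose the members, and their counts are given for completeness. In WT cells H3B-8800 lowered 3454 exons (65.0%) and raised 113 (2.13%) relative to DMSO, where 40.3% and 0.501% of all tested exons were called. With DMSO, 20 exons were lower and 7 higher in K700E than in WT, where 0.0627% and 0.0454% of all tested exons were called. Lower in K700E were DLST, at 57.3 ± 5.7 percent in K700E DMSO and 89.1 ± 2.27 percent in WT DMSO, ATP8A1 at 38.2 ± 11 and 69.9 ± 3.72 percent, and ZNF142 at 49.3 ± 3.05 and 74.6 ± 0.93 percent. The DLST exon had balanced reads in no sample. Its upstream junction was at 42.7% in K700E DMSO and 82.6% in WT DMSO, and its downstream junction at 19.5% and 28.8%. Higher in K700E were GGCX at 66.7 ± 3.6 and 33.3 ± 7.1 percent, ZEB1 at 32.9 ± 2.04 and 13.6 ± 1.72 percent and CSNK1E at 35.6 ± 2.2 and 16.5 ± 0.768 percent, K700E DMSO before WT DMSO in each (SD, n = 3 each). The ZEB1 and CSNK1E calls ended with any of the 6 samples left out and that of GGCX with any but WT DMSO replicate 1, at limma adjusted p of 0.0776 to 0.135. All 3 also ended with the replicate block (0.0872, 0.0804 and 0.0887 for ZEB1, CSNK1E and GGCX), which again matches the genotypes by number only. With only the samples of the contrast they had 0.0932, 0.0982 and 0.0903, and the ATP8A1 and ZNF142 calls ended too, at 0.153 and 0.0803. With each sample left out in turn, 6 to 11 exons were lower and 3 to 10 higher in K700E DMSO than in WT DMSO. The effect of H3B-8800 was called different between K700E and WT for 0 of the 5310 exons by limma (200 at an unadjusted p under 0.05), where 0.00432% of all tested exons were called in each direction; on the percent scale limma called 18 lower and 24 higher.

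At the lower limit of the rule the members nearest the border were in SUDS3 and ARSK, both at 10.01 percent in WT DMSO, and the nearest exons outside were in SERPINB9 at 9.99 percent and MGAT5 at 9.98 percent. At the upper limit the nearest members were in BCL2L13 at 89.993 percent and OXSM at 89.99 percent, and the nearest outside were in WDR44 at 90.01 percent and WWP1 at 90.013 percent.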

How the data were processed

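Members and gene lists were chosen with earlier results of these data known. The authors deposited 1 table of 721551 splicing events with an inclusion level in percent per sample and a text column of read numbers; adapters were trimmed with cutadapt 2.4 and the build is hg38, per the submitters' processing notes, with aligner and event tool not given in the sources used here. Each deposited level was checked against its reads (4598029 values, 0 differing by over 1 point). The 36 columns of single runs (3 per sample) were not used.

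Inclusion reads and exclusion reads, corrected by the authors' tool, gave log2((inclusion + 0.5)/(exclusion + 0.5)), fitted with limma 3.58.1 in R 4.3.3 with a mean trend over 12 samples in 4 groups, for 109090 events with 20 or more reads in every sample and a mean level of 1 to 99 percent. Junction levels used raw reads. Sequences are from GENCODE release 29. The fit was tested on simulated data.

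Named exons were those of different genes. Non-overlapping groups were required of the 10 largest called falls and rises in K700E and the 2 largest per gene list. They were also required of the 5 largest each way between genotypes under H3B-8800, and of the 4 largest each way for each contrast that uses WT DMSO. The 5 best-read stable exons and the exons nearest each border were named without that condition. Further groups are stated in the text as added after the values were seen. Alternatives were another added number of 1, the percent scale, read weights, 50 reads, no level filter, the replicate block, only the samples of the contrast, 20 points, 20 to 80 percent, balanced exons, non-overlapping exons and each sample left out.

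The replicate numbers share a clone or culture name across treatments in the labels, which pairs the samples within a genotype. In the drug comparisons the replicate block was the clone or culture. Between genotypes it was the number alone, as the labels pair no samples there. Deviations of samples of the same number from their group means correlated across events at 0.017 to 0.049 in K700E and 0.0147 to 0.0695 in WT.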

Additional observations from a re-analysis of the deposited data

How the results depend on the processing

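The counts for K700E H3B-8800 against K700E DMSO changed little with the fit: 60.1% to 63.7% of members were called lower and 84 to 95 higher with each sample left out in turn, 66.3% and 113 with read weights, and 62.5% and 98 with the replicate block. The count higher was 39 at 20 points, 60 for members at 20 to 80 percent, 17 for balanced exons and 25 with both junctions required, an alternative chosen after seeing the data, under which 56.3% were lower. For WT H3B-8800 against WT DMSO the counts higher under the first 3 of these were 41, 73 and 27, and leaving out samples gave 62.3% to 63.8% lower and 90 to 101 higher. Of the neighbouring introns 22.3% to 25.4% were higher and 30 to 40 introns lower with samples left out, 12.1% higher and 9 lower at 20 points, and 23 lower at 50 reads.

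Counts between genotypes moved most. Under H3B-8800 they were, lower then higher, 70 and 132 on the percent scale, 43 and 94 with weights, 2 and 4 with the replicate block, and 3 and 5 at 20 to 80 percent; 2 were lower with only the samples of the contrast and 4 higher at 20 points. Leaving out K700E H3B-8800 replicate 3 gave 2 and 2, and the range over the 6 samples left out was 2 to 4 lower and 2 to 6 higher. In DMSO they were 57 and 38 on the percent scale, 110 and 72 with weights, 10 and 4 without the level filter, 12 and 3 with the replicate block, 2 and 1 with only the samples of the contrast, 8 and 2 at 20 points, and 10 and 4 at 20 to 80 percent; 11 balanced exons were lower, and leaving out samples gave 6 to 11 lower and 3 to 10 higher. The difference of the H3B-8800 effect had 18 and 24 on the percent scale, and 0 and 0 with weights, with the replicate block and with each sample left out. The causes were not tested.

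Over 129 single results and their settings, 1535 of 1654 stayed as they were, called or uncalled. A call was lost in 107, gained in 12 and changed direction in 0. For K700E H3B-8800 against K700E DMSO, 111 named exons were followed, whatever comparison they were named for. Of these, 100 stayed called or stayed uncalled under every setting that gave them a value. The count includes the stable exons and others uncalled in this comparison. Precision at the read minimum is limited, as given in the report.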
